A study of Mus musculus with 16 samples.

Results

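The genes for the protein subunits of the cytosolic ribosome were examined cell class by cell class in the cortex of aged tauopathy mice. Members were taken by symbol: every row of the count tables named Rpl or Rps followed by a number or the letters of the stalk and laminin receptor genes, without the processed copies marked -ps, the Rps6k kinases and Rps19bp1. This rule gave 90 of 30389 genes, of which 53 belonged to the large and 37 to the small subunit. Of these, 86 were listed in all 16 tables, and the other 4 in fewer (Rpl39l, Rpl6l, Rpl3l and Rps12l1). In the sum over all cells 81 members passed the low-count filter, and 21 passed it at all 9 levels tested, the levels being all cells and 8 cell classes. The rule used names alone, but this gene family was chosen with earlier results of these data known.

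THY-Tau22 mice express human 4-repeat tau with the G272V and P301S mutations from the neuronal Thy1.2 promoter. Heterozygous THY-Tau22 males had been crossed to C57Bl6/J females, and transgenic mice were compared with wild-type (WT) littermates that lack the transgene, both sexes at 17 months of age, from several litters. The neocortex of 1 hemisphere per mouse was dissociated to living cells, a step known to lose many adult neurons, and the cell type that drives the transgene is among the smaller classes below. Drop-seq counts each captured transcript once at its 3′ end through a unique molecular identifier (UMI), so levels of different genes do not scale with transcript length. The labels gave 4 tables of WT males, 4 of THY-Tau22 males, 3 of WT females and 5 of THY-Tau22 females.

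A cytosolic ribosome joins a large subunit, which makes the peptide bonds and holds the exit tunnel for the growing chain, to a small subunit, which reads the mRNA. Most of its proteins are present in a single copy per particle, and their mRNAs belong to the 5′ TOP class: transcription starts at a C followed by an unbroken run of pyrimidines, and through that run translation is held back or released by TOR signalling. In brain, these mRNAs are known among those found in the fine processes of neurons and glia, away from the cell body.

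The tables held 3000 barcodes each and 1041675 to 2237505 UMIs per library, and 28530 barcodes with 200 to 7000 detected genes were kept, 1121 to 2526 per library. Median depth was 429 to 736.5 UMIs per cell. A male library appeared under both genotypes: replicate 3 of the WT and replicate 4 of the THY-Tau22 males had 2952 of 3000 barcodes in common, against 3 to 12 for any other of the 120 pairs. Both were left out, which leaves 14 libraries, 3 in each group but for the 5 THY-Tau22 females. An animal number recurs in the titles, for replicate 1 of the WT males and replicate 1 of the THY-Tau22 females. Classes were named from marker genes after clustering without the members, the -ps rows and the mitochondrially encoded genes, and each is called by the class it resembles. All 14 microglia markers were detected in the microglia-like sums, at a summed 26889 to 45029.9 CPM (UMIs scaled to a common library total) per library. The same list summed to 575 to 2685 CPM in the neuron-like sums. The oligodendrocyte list summed to 804 to 27349 CPM there, next to 19234 to 41172 CPM for the neuron list itself. RNA of other cells was thus present in each class, in some neuron-like sums at a high level. Its part in the levels below was not tested.

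The libraries also fell apart by a code at the end of their titles, whose meaning the labels do not give. The 7 libraries coded S1, S2, S5 or S6 (set A: the 3 WT males, THY-Tau22 female replicates 1, 2 and 5, and WT female replicate 3) had 17.1 to 23.1% of UMIs from the mitochondrial rRNA genes. The 7 coded S3, S4, S7 or S8 (set B: the 3 THY-Tau22 males, THY-Tau22 female replicates 3 and 4, and WT female replicates 1 and 2) had 4.66 to 13.2%. The sets were formed after these values had been seen. All males of set A were WT and all males of set B were THY-Tau22, so in males the transgene and the code set cannot be told apart.

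The annotated start sites were searched for the pyrimidine run of the TOP class. RefSeq (GRCm38.p6) gave start windows for 65 of the 90 members, 77 windows in all. Each window below holds 35 bases before and 25 bases from the annotated start, 5′ to 3′ on the gene's strand. These 60 printed bases are cut from a longer start window. Where the whole start window is named below, the longer one is meant. Capitals mark a pyrimidine run: a C followed by at least 4 bases that are each C or T, beginning within 10 bases of the annotated start, searched on the gene's strand. Any such C was counted, also inside a longer unbroken stretch of C and T that began further upstream. Capitals can therefore mark only the end of a stretch. Rpl34, Rpl39 and Rps26 are shown because they were the members called between genotypes, and Rps9 and Rps24 as abundant small subunit genes. Rpl4 is shown because it varied least between libraries, and Rpl13 because it varied most between cell classes. Neither Rpl4 nor Rpl13 has a run that begins within 10 bases of the start, but both windows hold a stretch of C and T further upstream. In the first Rpl34 window below, the capitals are the end of a stretch that begins more than 10 bases before the start. Rps24 has another annotated start, chr14:24490718-24490777, whose window is not shown. That window has no run that begins within 10 bases of the start, but it opens with a stretch of C and T further upstream.
Rpl34 (chr3:130730313-130730372, minus strand): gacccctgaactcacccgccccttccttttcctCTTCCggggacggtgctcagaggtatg
Rpl34 (chr3:130730374-130730433, minus strand): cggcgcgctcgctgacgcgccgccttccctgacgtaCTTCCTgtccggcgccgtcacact
Rpl39 (chrX:37085198-37085257, minus strand): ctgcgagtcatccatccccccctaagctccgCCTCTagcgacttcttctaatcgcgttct
Rps26 (chr10:128626482-128626541, minus strand): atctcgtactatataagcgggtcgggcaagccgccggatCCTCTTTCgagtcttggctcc
Rps9 (chr7:3704006-3704065, plus strand): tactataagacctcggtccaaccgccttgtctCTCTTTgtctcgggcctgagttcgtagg
Rps24 (chr14:24490643-24490702, plus strand): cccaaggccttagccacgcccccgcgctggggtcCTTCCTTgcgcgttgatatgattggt
Rpl4 (chr9:64173352-64173411, plus strand): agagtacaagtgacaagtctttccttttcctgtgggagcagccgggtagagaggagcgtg
Rpl13 (chr8:123102315-123102374, plus strand): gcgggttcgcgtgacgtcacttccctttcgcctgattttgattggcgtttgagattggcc
A run counted from the annotated start itself was found in 14 of 77 member windows (18.2%), against 2.51% of the 32851 windows of all genes. Pyrimidines could also stand before that C, so these counts do not show where a whole stretch begins. Within 10 bases of the start a run was found in 41 of 77 (53.2%), against 30.7% of all windows, and on the opposite strand in 20.8% against 34.9%. The letters CCGGAAG, searched on both strands over the whole start window and able to overlap the other motifs, were in 35.1% of member windows and 8.86% of all. TATAAA was in 9.09% against 13.6%, and CACGTG in 10.4% against 7.15%. The 75 windows of mitochondrial ribosomal protein genes, whose mRNAs are not of the TOP class, held CCGGAAG in 34.7%, a run within 10 bases of the start in 41.3% and a run exactly at the start in 0%. These are matches of letters, and an annotated start a few bases from the start in use moves a run out of place.

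Ribosomal protein mRNAs made up very different shares of the mRNA of different cell classes, and the order of the classes was nearly the same in every library. The share is the percentage of a class's UMIs, mitochondrially encoded genes left out, that fell on the members. Macrophage-like cells, a mixed class divided further on, had the highest share, 2.54% in the lowest library, 4.11% in the median and 7.10% in the highest (mean 4.23 ± 1.2, SD, n = 14 libraries). Microglia-like cells followed with 2.01%, 2.70% and 3.98% (2.84 ± 0.680). Both immune classes thus stood above the others among the 8 classes tested. A fibroblast-like cluster, not among the 8, had a share of 3.00 ± 0.754% in a finer clustering (8 libraries with at least 10 of its cells). A high share was thus not particular to immune cells. Endothelial-like cells, which line the vessels, had 1.5%, 2.01% and 3.43% (2.13 ± 0.557). Mural-like cells, the contractile cells around vessels, had 1.34%, 2.08% and 3.11% (2.10 ± 0.494). The vessel classes lay close together, and both were above the glia of neural origin.

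Oligodendrocyte-like cells, which make myelin, had shares of 0.897%, 1.26% and 2.23% (1.31 ± 0.382). Their precursors (OPC-like) had 0.699%, 0.847% and 1.45% (0.938 ± 0.240). Astrocyte-like cells had 0.568%, 0.705% and 1.30% (0.785 ± 0.226). Neuron-like cells were at the bottom with 0.447%, 0.590% and 1.52% (0.706 ± 0.311). The library ranges of neighbouring classes overlapped, so neighbours were also compared within each library.

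Within libraries, microglia-like cells were above endothelial-like cells in 14 of 14, by 1.12 to 1.56 times. Macrophage-like cells were above microglia-like cells in 14 of 14 (median ratio 1.46), an order that did not hold at a finer clustering. In the same way, mural-like cells were above oligodendrocyte-like in 14 of 14 (1.66), oligodendrocyte-like above OPC-like in 14 of 14 (1.40), and OPC-like above astrocyte-like in 14 of 14 (1.21). Elsewhere neighbours had no fixed order: endothelial-like cells were above mural-like cells in 8 of 14 libraries, with a difference of 0.0252 ± 0.160 percentage points, and astrocyte-like above neuron-like cells in 10 of 14, with 0.0790 ± 0.171. Microglia-like cells held 4.36 times the neuron-like share in the median library (2.53 to 6.08) and 3.72 times the astrocyte-like share (2.94 to 4.23). The share does not tell less ribosomal protein mRNA per cell from more of other mRNA.

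The macrophage-like class held cells of unlike ribosomal protein content. At a finer clustering, a cluster of 165 cells was led by Mrc1, Pf4 and F13a1, genes of macrophages at the brain's borders, and 99.4% of it came from the macrophage-like class. That cluster had a member share of 2.60 ± 0.675% (1.94 to 4.34, 10 libraries with at least 10 of its cells). Another cluster of 315 cells was led by the antigen presentation genes Cd74, H2-Aa and H2-Ab1 and by Clec7a, Lpl and Cst7, known from microglia around plaques, and it stays unnamed. Among the marker lists, that of T or NK cells scored highest in it, with a mean log2 fold of 3.13 and 3 markers detected. The macrophage list followed at 2.35. Whether lymphoid cells were part of this cluster was not tested. The cluster came to 75.6% from the macrophage-like class and to 24.4% from the microglia-like class. Its member share was 4.87 ± 0.680% (3.57 to 5.85, 11 libraries), above the Mrc1 cluster in 9 of 9 libraries that held both (median ratio 1.89). It was also above each of the 3 microglia-like clusters, at 2.71%, 2.92% and 2.82%, in 11 of 11 libraries (median ratios 1.77 to 1.92). The Mrc1 cluster, which alone kept the macrophage name, was above those microglia-like clusters in only 4, 1 and 3 of 10 libraries (median ratios 0.956, 0.894 and 0.903). The place of the macrophage-like class above the microglia-like class thus goes with the unnamed cluster. These clusters were looked at after their values had been seen, and no test was made between them.

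The unnamed Clec7a and Cd74 cluster made up 32 of 59 macrophage-like cells (54.2%) in WT males, 90 of 126 (71.4%) in THY-Tau22 males, 28 of 66 (42.4%) in WT females and 88 of 151 (58.3%) in THY-Tau22 females. These percentages pool the cells of all libraries of a group, so they have no spread between libraries. Single libraries held 10 to 50 macrophage-like cells, and 1 library can move the value of its group. Whether the mix differed between the groups was not tested. The member share of the macrophage-like class is a share of a mixture, and differences between groups in that class are given below with this in mind.

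Both subunits followed the same order, but not in equal proportion. In microglia-like cells the large subunit genes took 1.62 ± 0.378% and the small subunit genes 1.22 ± 0.303% of UMIs, and in neuron-like cells 0.415 ± 0.163% and 0.291 ± 0.151%. The ratio of large to small was 1.33 ± 0.0510 in microglia-like and 1.23 ± 0.140 in macrophage-like cells. It was 1.66 ± 0.17 in OPC-like cells, the highest of the 8 classes in 11 of 14 libraries, and 1.48 ± 0.183 in neuron-like cells, the highest in the other 3. With Rpl13 left out, the OPC-like ratio was 1.47 ± 0.158 and the neuron-like ratio 1.45 ± 0.184.

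The make-up of the pool was compared through each member's share of all member UMIs in the 6 largest classes. In 43 of the 56 members with at least 20 UMIs in each class, the highest class mean was under 2 times the lowest (median 1.61). Rpl13, a large subunit protein, stood furthest apart. It took 6.95 ± 1.63% of member UMIs in OPC-like cells (3.96 to 9.98 over 14 libraries) and 1.45 to 1.78% in the other 7 classes. The lowest OPC-like library was above the highest library of every other class, the nearest of them at 2.50% in mural-like cells. Between THY-Tau22 and WT the OPC-like level of Rpl13 differed by a log2 fold change of 0.67 (SE 0.38, adjusted p = 0.589) in males and 0.18 (SE 0.36, adjusted p = 0.998) in females by edgeR's quasi-likelihood test with Benjamini-Hochberg adjustment over all genes tested.

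Several paralogs, second genes that encode a near copy of a ribosomal protein, also differed in share between classes. Rps27l, the paralog of Rps27 and a p53 target, took 1.38 ± 0.570% of member UMIs in OPC-like cells and 0.291 ± 0.0527% in microglia-like cells, with OPC-like higher in 14 of 14 libraries. Rpl22l1, the paralog of Rpl22, took 1.95 ± 0.560% in neuron-like and 0.601 ± 0.0978% in microglia-like cells, again in 14 of 14. Rpl36al, the autosomal paralog of Rpl36a, was at 1.24% in OPC-like and 0.441% in endothelial-like cells (12 of 14). The neuron-like and OPC-like values rest on few UMIs, 120 for Rpl22l1 and 77 for Rps27l over all libraries.

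Other members leaned to vessel or immune cells. Rpl38, a small large-subunit protein known for patterning defects when lost, took 2.01 ± 0.724% of member UMIs in endothelial-like and 0.748 ± 0.248% in microglia-like cells (14 of 14). Reads of Rpl38 may be split with its -ps rows, which held 66.6% of the UMIs of both. Rplp1, an acidic protein of the stalk that recruits translation factors, took 8.59 ± 0.523% in microglia-like cells (7.92 to 9.74) and 7.05 ± 1.31% in macrophage-like cells. In the other 6 classes its mean was 4.16 to 5.71%. The lowest microglia-like library was above every library of those 6 classes, of which the highest was 7.17% in neuron-like cells. Rps4x, an X-linked small subunit gene, took 1.15% in microglia-like and 0.513% in neuron-like cells (14 of 14).

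**Figure D1:**
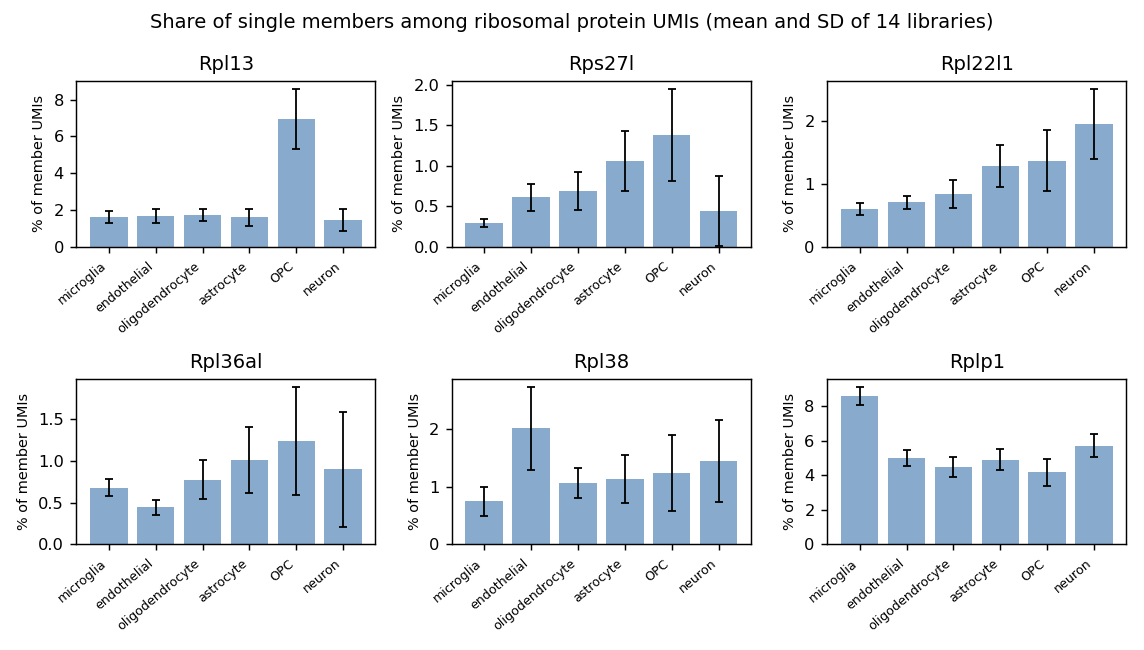
Percentage of all ribosomal protein UMIs (y axis) taken by Rpl13, Rps27l, Rpl22l1, Rpl36al, Rpl38 and Rplp1 in the 6 largest cell classes (x axis), as mean and SD of 14 libraries. Rpl13 stands at 6.95% in OPC-like cells against 1.45% in neuron-like cells, and Rplp1 is highest in microglia-like cells at 8.59%.

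The level of single members differed widely, and the most abundant ones came from both subunits. In the sum over all cells the median member had 102 CPM, against 26.6 CPM for all genes tested, and the 10 highest members held 38.4% of the 262251 member UMIs. Rplp1 was highest at 1012 ± 263 CPM (n = 14), followed by Rpl4 (644 ± 57.8), which lines the exit tunnel, and by Rps14 (631 ± 162), Rps24 (629.9 ± 112), Rps9 (551 ± 139), which helps keep decoding accurate, and Rpl22 (518 ± 64.3). Rpl4, Rps14 and Rps24 did not differ beyond their spread. At the other end, 8 members had fewer than 100 UMIs in all.

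Members also differed in how much they varied between libraries. Over 54 members with at least 1000 UMIs the coefficient of variation between libraries was 8.98 to 49.0% (median 31.2). Rpl4 varied least, from 544 to 779 CPM around a median of 631, and Rpl22 and Rps24 were next with 12.4% and 17.7%. Rpl39 varied most, from 92.2 to 533 CPM around a median of 240.1 (49.0%). Rpl39 is a very small protein at the tunnel exit. In microglia-like cells, the class with most cells, the order was alike at both ends, with 8.31% for Rpl4, 11.4% for Rpl22, 14.4% for Rps24 and 47.9% for Rpl39. There the set B mean was 1.06, 1.18, 1.09 and 1.99 times the set A mean for these genes, in the same order. How much of the spread goes with the title code sets was not tested.

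Genotype was compared within each sex, to ask whether the members differ with the tau transgene and whether that depends on sex. Over all cells the member share was 1.40%, 1.51% and 1.26% in WT males and 2.30%, 1.99% and 2.47% in THY-Tau22 males. The groups did not overlap, with means of 1.39 ± 0.127% and 2.25 ± 0.241%, a ratio of 1.62. In females the shares were 1.89%, 2.73% and 1.24% in WT and 1.75%, 1.38%, 1.81%, 2.23% and 1.41% in THY-Tau22 mice. These groups overlapped, with means of 1.95 ± 0.744% and 1.72 ± 0.347% and a ratio of 0.878. The lowest WT female was the only WT female of set A.

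Microglia-like cells gave the same picture at a higher level. The shares were 2.01%, 2.42% and 2.01% in WT males and 3.60%, 3.13% and 3.98% in THY-Tau22 males (ratio of means 1.66). In females they were 2.93%, 3.83% and 2.10% in WT and 2.56%, 2.39%, 2.84%, 3.55% and 2.43% in THY-Tau22 mice (0.933). Male groups did not overlap at 7 of the 9 levels, overlapping in neuron-like and mural-like cells, and female groups overlapped at all 9. In males mitochondrial rRNA moved the other way, at 19.7 ± 3.01% of UMIs in WT and 11.9 ± 1.07% in THY-Tau22 males, and so did the nuclear RNA Malat1, at 7.08 ± 0.640% and 4.25 ± 0.781% of UMIs without mitochondrially encoded genes.

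The member share followed the title code in both sexes. Set A libraries lay between 1.24 and 1.75% over all cells, and set B libraries between 1.81 and 2.73%. In microglia-like cells the ranges were 2.01 to 2.56% and 2.84 to 3.98%. The sets did not overlap over all cells or in microglia-like, astrocyte-like and macrophage-like cells, and the set B mean was 1.37 to 1.70 times the set A mean over the 9 levels. Within set B, the WT females (1.89% and 2.73%) and THY-Tau22 females (1.81% and 2.23%) overlapped with each other and with the THY-Tau22 males. Within set A, the WT female was at 1.24% and the THY-Tau22 females at 1.38 to 1.75%. The sets were formed with these shares in view, so this is a description with no test. The tables left out, which hold the same library, carried codes of both sets. WT male replicate 3 carried a set A code, with 1.27% on the members and 19.6% mitochondrial rRNA. THY-Tau22 male replicate 4 carried a set B code, with 1.34% and 19.9%.

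**Figure D2:**
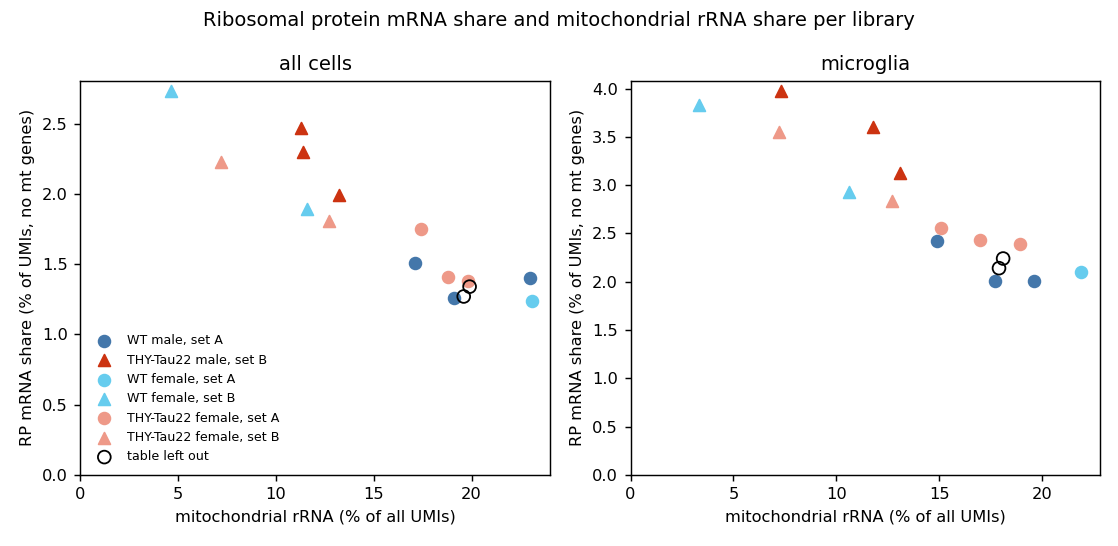
Share of UMIs on the ribosomal protein genes (y axis, %) against the share on mitochondrial rRNA (x axis, % of all UMIs), over all cells and in microglia-like cells, 1 point per library, with colour for the group and shape for the title code set. Over all cells, the libraries of set A have 17.1 to 23.1% mitochondrial rRNA and at most 1.75% on the members, and those of set B at most 13.2% and at least 1.81%.

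Gene by gene, the members leaned higher in THY-Tau22 than in WT males at every level, while few passed the test. A call in edgeR's quasi-likelihood test needed a p under 0.05 after Benjamini-Hochberg adjustment over all genes of a level, and a log2 difference of 0.5 or more in either direction. Over the 9 levels, which share cells, 453 tests of members gave 3 calls, all higher in THY-Tau22 males, against 0.0682% of all 33718 tests. The fold change was above 0 in 421 of the 453 and below 0 in 32, and 35.1% had an unadjusted p under 0.05, against 15.1% of all tests. DESeq2 made 21 calls of members, against 0.397% of all tests, and 18 of its calls were in microglia-like cells.

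The median log2 fold change of the members in males was 0.64 over all cells (81 members) and 0.77 in microglia-like cells (64 members). It was 0.61 in astrocyte-like, 0.65 in oligodendrocyte-like, 0.53 in endothelial-like, 0.60 in OPC-like, 0.70 in neuron-like, 0.48 in mural-like and 0.55 in macrophage-like cells. Medians of all genes tested were between -0.01 and 0.06. Over all cells the small subunit median was 0.77 and the large subunit median 0.48, and in microglia-like cells they were 0.84 and 0.69. In microglia-like cells 45 of 64 members had all THY-Tau22 males above all WT males, as did 12.5% of all genes tested there. Over all cells it was 49 of 81 members, against 14.8% of all genes.

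**Figure D3:**
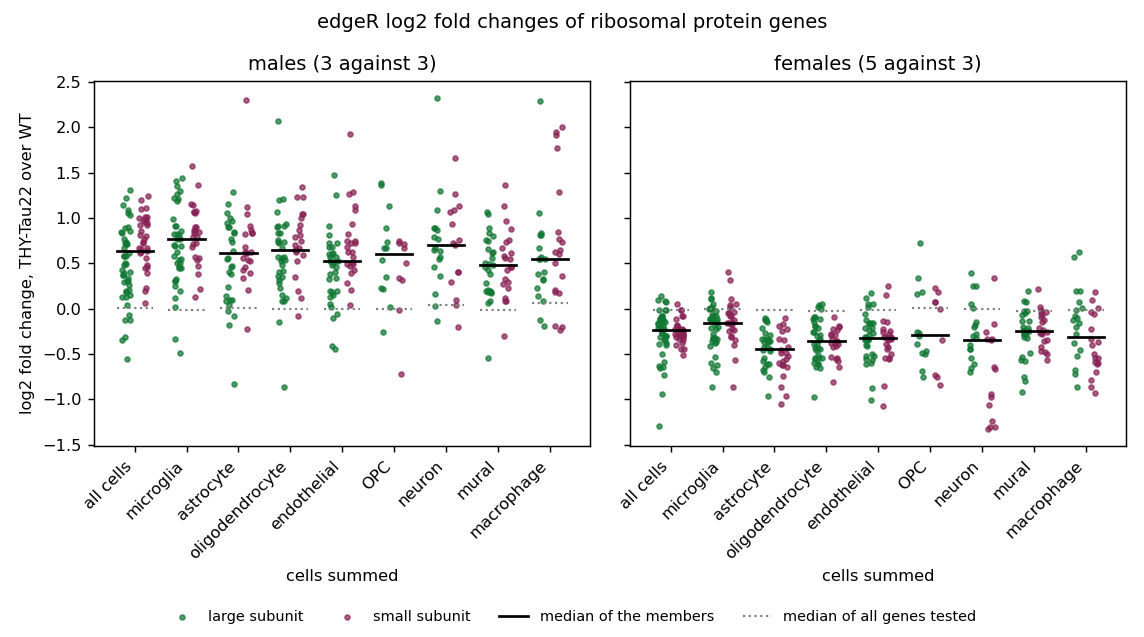
edgeR log2 fold change of THY-Tau22 over WT (y axis) for each member at 9 levels (x axis), males (3 against 3) and females (5 against 3) in separate panels, large and small subunit apart. Black lines are medians of the members, 0.64 over all cells in males and -0.24 in females, and dotted lines are medians of all genes tested.

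The 3 members called were all in microglia-like cells, where 0.354% of the genes tested were called higher. Rpl34, a large subunit protein, was at 323, 322 and 230.1 CPM in WT males and at 697, 677 and 794 CPM in THY-Tau22 males. Its log2 fold change was 1.30 (SE 0.27, edgeR adjusted p = 0.0377). Rps26, which sits at the mRNA exit of the small subunit, was at 366, 438 and 203 CPM against 790.3, 788 and 1031 CPM, higher by 1.36 on the log2 scale (SE 0.30, adjusted p = 0.0386 in edgeR). Every THY-Tau22 male was above every WT male for both genes. Rpl39, at the tunnel exit, was at 320.3, 309 and 209 CPM against 666, 533 and 1096 CPM, higher by 1.44 on the log2 scale (SE 0.33, adjusted p = 0.0482 in edgeR). THY-Tau22 male replicate 3 was the highest male library for all 3 genes. It was unlike the rest in its cells: 418 of its 1393 cells stayed unnamed, against 62 to 162 in each other library.

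The calls depended on single libraries. When each of the 14 libraries was left out in turn, Rpl34 was still called in 8 of 14 fits, Rps26 in 9 and Rpl39 in 5. The log2 fold changes stayed at 1.17 to 1.39 for Rpl34, 1.12 to 1.59 for Rps26 and 1.08 to 1.66 for Rpl39. Without WT male replicate 4, the lowest of its group, the adjusted p in edgeR was 0.253 for Rpl34 and Rps26 and 0.256 for Rpl39. Without THY-Tau22 male replicate 3 it was 0.175, 0.200 and 0.355 in the same order. With a term for the title code sets, an alternative added after seeing the data, the log2 fold changes in males were 0.70, 0.69 and 0.73 for Rpl34, Rps26 and Rpl39 (edgeR adjusted p = 0.995 for each). That fit called 0 members in males (0% of all 33718 tests), and 8 of the 453 member tests, 1.77%, had an unadjusted p under 0.05, against 3.48% of all tests. Since every male of 1 genotype was of 1 set, that fit takes the set difference from the females. Rpl34, Rps26 and Rpl39 also have -ps rows, which held 9.82%, 30.9% and 14.9% of the UMIs of gene and copies together.

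In females the same genes did not separate. Rpl34 was at 539, 849 and 389 CPM in WT and at 462, 458, 494, 716 and 397 CPM in THY-Tau22 females, a log2 fold change of -0.23. Rps26 was at 771, 917 and 364 against 604, 548, 642, 809 and 507 CPM (-0.13), and Rpl39 at 524, 1010.2 and 348 against 512, 333, 511, 809 and 554 CPM (-0.20). The groups overlapped for all 3 genes, and the edgeR adjusted p was 1.00 for each.

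The most abundant members showed smaller differences in microglia-like cells of males. Rplp1 was at 1594, 1778 and 1579 CPM in WT and at 2837, 2293 and 3618 CPM in THY-Tau22 males, groups that did not overlap, and differed by 0.82 on the log2 scale (SE 0.26, adjusted p = 0.113 in edgeR). Rpl4 was at 994, 988 and 942 against 1088, 1076 and 1024 CPM (0.12, SE 0.22, adjusted p = 0.807). Rps24 was at 1063, 1280.2 and 990.1 against 1349.7, 1137 and 1405 CPM (0.22, SE 0.24, adjusted p = 0.664). Rps24 overlapped between the groups, and Rpl4 did not but differed by little. Other members had log2 fold changes of 0.91 for Rpl41 (adjusted p = 0.111), 0.79 for Rps14 (0.130), 0.68 for Rps9 (0.159), 0.33 for Rpl22 (0.461) and 1.27 for Rplp0, the scaffold of the stalk (0.0843), all by edgeR.

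**Figure D4:**
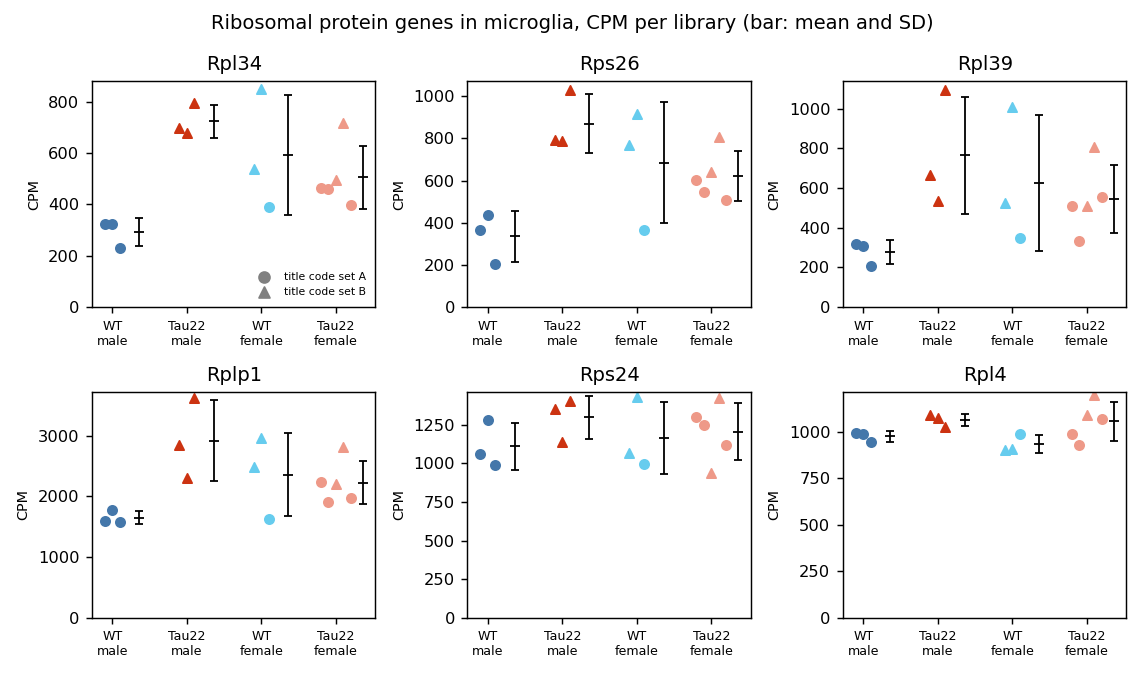
CPM (y axis, linear from 0) of Rpl34, Rps26, Rpl39, Rplp1, Rps24 and Rpl4 in microglia-like cells of each library, by group (x axis), with shape for the title code set and the mean and SD beside each group. Rpl34 averages 292 CPM in WT males and 723 CPM in THY-Tau22 males, and Rpl4 averages 975 and 1063 CPM.

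Across female groups the members leaned the other way, with 0 calls by edgeR or DESeq2. Of all genes tested, edgeR called 0.00297% in females. The member medians were -0.24 over all cells, -0.16 in microglia-like and -0.45 in astrocyte-like cells, and between -0.25 and -0.36 in the other 6 classes. The fold change was below 0 in 396 of 453 tests, and 33 (7.28%) had an unadjusted p under 0.05, against 2.49% of all genes. In microglia-like cells and over all cells 0 members separated the female groups, against 2.24% and 1.14% of all genes tested. The female direction rests on WT female replicate 2, the library with the highest share: without it the medians were 0.11 over all cells and 0.12 in microglia-like cells.

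The male and the female difference were also compared with each other. The interaction, male minus female log2 fold change, had a median over members of 0.93 over all cells and 0.91 in microglia-like cells, and 0.64 to 1.12 elsewhere. edgeR called 0 members, against 0.0386% of all genes, 201 of 453 tests (44.4%) had an unadjusted p under 0.05 against 13.3% of all genes, and DESeq2 called 7, against 0.119% of all tests. With the term for the code sets the interaction medians were 0.10 over all cells and 0.21 in microglia-like cells. Averaged over both sexes, 0 members were called by either tool, against 0.00593% of all genes in edgeR, and 33 tests (7.28%) had an unadjusted p under 0.05, against 5.06% of all genes.

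Between the sexes within a genotype, 0 members were called by either tool. In WT mice the members leaned lower in males, with a median of -0.48 over all cells and -0.45 in microglia-like cells, and 89 of 453 tests (19.6%) had an unadjusted p under 0.05, against 8.27% of all genes. edgeR called 0.0919% of all genes. In THY-Tau22 mice they leaned higher in males, with 0.42 and 0.45 and 75 such tests (16.6%, against 5.37% of all genes), and 0.0979% of all genes were called. WT males were all of set A and THY-Tau22 males all of set B, so here too sex and code set overlap in part.

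The members were also grouped by their place in the ribosome, in microglia-like cells of males. The 3 stalk genes tested had a median log2 fold change of 0.82, the 6 genes of the polypeptide exit 0.62 with Rpl39 called, and the 4 genes of mRNA entry and exit 0.99 with Rps26 called, and all of them lay above 0. Rpl11, the only gene tested of the particle around the 5S rRNA, was at 0.25 (edgeR adjusted p = 0.749), and Rps15, the only gene tested near the decoding centre, was at 1.07 (adjusted p = 0.0753). The groups were not tested against each other. Of the X-linked members Rpl39 and Rps4x were tested in microglia-like cells. Rps4x was not called, at 0.86 (SE 0.28, edgeR adjusted p = 0.126). Over all cells the X-linked Rpl10 and Rpl36a, at 8.17 CPM on average for Rpl10, had log2 fold changes of 0.20 and 0.15. The 6 paralogs tested in microglia-like cells had a median of 0.54 with 5 above 0, from Rpl37rt at 1.21 (adjusted p = 0.0640) and Rpl22l1 at 0.77 (adjusted p = 0.218) to Rpl7l1 at -0.49 (adjusted p = 0.450). Rpl7l1 encodes a protein related to Rpl7 that acts in ribosome assembly.

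Other genes of the translation machinery were taken from lists of the same kind, again in microglia-like cells of males. All 6 elongation factor genes tested lay above 0 (median 0.55, 0 called), with Eef1a1 at 0.69 (SE 0.23, edgeR adjusted p = 0.139). A list of other 5′ TOP mRNAs shares Eef1a1, Eef1b2, Eef1g and Eef2 with the elongation factors and Npm1 with the genes that build ribosomes. These lists are thus not separate sets of genes. Of the 17 genes tested on the TOP list, 15 lay above 0 (median 0.39, 0 called). Rack1, a scaffold on the small subunit, was at a log2 fold change of 0.91 (SE 0.26, adjusted p = 0.0855). Genes that build ribosomes in the nucleolus did not share the lean, with 8 of 16 above 0 and a median of 0.05, nor did the TOR control genes, with 5 of 8 above 0 and 0.10.

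Mitochondrial genes were looked at as an outside group. Of the mitochondrial ribosomal protein genes, which are encoded in the nucleus, 30 of 82 were tested in microglia-like cells and 20 lay above 0 (median 0.42). Over all cells 69 of 77 lay above 0, with the same median of 0.42. All 8 mitochondrially encoded mRNAs tested lay above 0 in microglia-like cells, with a median of 1.13, and mt-Nd4, a complex I subunit, was called at 1.42 (SE 0.33, edgeR adjusted p = 0.0482). Their share of UMIs over all cells was 0.476 to 0.798% in set A and 1.05 to 1.55% in set B, so these mRNAs moved with the title code as the members did. In females none of the genes in these lists was called.

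The processed copies were a large part of the signal around these genes. The 230 -ps rows held 96483 UMIs, next to the 262251 UMIs of the members, or 24.7 to 29.5% of both per library. Of the 57 members with a -ps row, 19 had more UMIs in those rows than in the gene. Rps6, the small subunit protein phosphorylated after TOR activation, had 117 UMIs in the gene and 2349 in its copies (95.3%). Rpl36a had 168 and 3471 (95.4%), and Rpl14 had 5527 and 15693 (74.0%). Levels of such members are therefore uncertain, since processed copies are nearly the same in sequence and how the authors' counting split the reads is not given in the sources used here. The -ps rows were 0.541 ± 0.05% of UMIs without mitochondrially encoded genes in WT males and 0.835 ± 0.0801% in THY-Tau22 males, and the ratio of 1.54 was close to the 1.62 of the members.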

How the data were processed

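The authors ran Drop-seq on cortex cells, sequenced on an Illumina NextSeq and deposited UMI counts per gene and barcode with no normalization. The submitters' processing notes name the build mm10, and the version of the Drop-seq pipeline and the annotation are not given in the sources used here. Members, gene lists and comparisons were chosen with earlier results of these data known.

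Barcodes with 200 to 7000 detected genes were kept. Doublets marked by Scrublet (1473, 5.16%) were kept. Clustering in scanpy 1.11.5 used 2500 variable genes, 19 principal components, 20 neighbours and leidenalg 0.10.2 at resolution 0.5, without the members, -ps rows and mitochondrially encoded genes. Clusters took a class name from at least 3 detected markers, and a cluster whose leading genes went against a name stayed unnamed. The classes held 7912 microglia-like, 5329 astrocyte-like, 4955 oligodendrocyte-like, 3889 endothelial-like, 1489 neuron-like, 1318 OPC-like, 1018 mural-like and 441 macrophage-like cells in 16 tables. The 201 fibroblast-like, 140 ependymal-like and 1838 unnamed cells were not tested as classes.

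Counts were summed per library and class (at least 10 cells) and tested with edgeR 4.0.16 in R 4.3.3: TMM, filterByExpr, quasi-likelihood, 1 mean per group and 6 contrasts. CPM are per TMM-scaled library total. Code was tested on simulated data. Alternatives used DESeq2 1.42.0, other scalings, filters, limits and clusterings, other uses of the shared library, and each library left out. Replicate numbers are names in accession order. Libraries were taken as separate mice, though an animal number recurs in the titles of a pair of them. No test was made over cells or over the members as a set. An exact permutation test of 3 against 3 cannot go below p = 0.10. With 1041675 to 2237505 UMIs per library, members under 100 UMIs give no usable difference.

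Named members were the 6 highest by CPM, the 3 with the smallest p in each class and contrast, all called, the 5 that differed most in share between classes, paralogs, X-linked members, and 6 named by the study. From the second of these only some are printed. Rps6, Rpl14, the share of Rplp1 by class and the Clec7a and Cd74 cluster were chosen after their values were seen. The single-gene result of a further member is not reported here.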

Additional observations from a re-analysis of the deposited data

Results flagged for a closer look

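In groups of 5, a library whose gap to the nearest other was above the Dixon critical value of 0.71 of the group's range was looked for in 58 groups of values, and chance flags about 1 in 20 such groups. THY-Tau22 female replicate 4 stood apart in OPC-like cells, with 1.31% of UMIs on the members (Dixon ratio 0.805) and 0.830% on the large subunit members (0.911). The same library had 925 CPM of Rpl41 in microglia-like cells (0.719). Outside the comparisons, the -ps rows held 96483 UMIs in 14 libraries. No explanation was tested for these values.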

How the results depend on the processing

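Calls of members over the 9 levels depended on the processing, and calls over all genes, given after each count, moved with them. The 3 calls in males (23 of 33718 over all genes) became 21 with DESeq2 (134 of 33718), 25 with no low-count filter (488 of 176185), 5 at resolution 1.0 (34 of 33465), 0 with all 16 libraries (0 of 36008), 17 with the shared library kept as a WT male (108 of 34653), 0 with it kept as a THY-Tau22 male (1 of 34573), 32 without the MB22 libraries (502 of 34777) and 0 with the term for the title code sets (0 of 33718). Left out in turn, single libraries gave 0 to 32 calls: 32 without WT female replicate 3 (539 of 35936), 15 without WT female replicate 2 (209 of 36737), 11 without THY-Tau22 female replicate 4 (77 of 33503), 5 without THY-Tau22 male replicate 2 (58 of 35840), and 0 without THY-Tau22 male replicates 1 or 3, THY-Tau22 female replicate 3 or WT male replicates 1 or 4 (0 to 7 over all genes). The interaction, with 0 calls, had 7 with DESeq2 (40 of 33718), 17 with no filter (322 of 176185), 8 at a minimum of 500 genes (56 of 17744), 2 with the shared library as a WT male (35 of 34653), 92 without the MB22 libraries (1966 of 34777) and 0 to 137 with a library left out (137 without WT female replicate 3, 3031 of 35936, and 13 without THY-Tau22 female replicate 4, 122 of 33503). Between WT sexes, with 0 calls, there were 2 with no filter (137 of 176185), 64 without the MB22 libraries (1513 of 34777) and 0 to 64 with a library left out (64 without WT female replicate 3, 1667 of 35936). The cause was not tested. MB22 marks THY-Tau22 female replicate 5 and WT female replicate 3.

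The term for the title code sets, chosen after seeing the data, moved the male medians to 0.05 over all cells and to 0.21 in microglia-like, 0.00 in astrocyte-like, 0.22 in oligodendrocyte-like, 0.14 in endothelial-like, -0.14 in OPC-like, -0.13 in neuron-like, 0.09 in mural-like and 0.19 in macrophage-like cells. It moved the interaction to 0.10 over all cells, 0.21 in microglia-like, 0.25 in astrocyte-like and -0.03 in OPC-like cells, and the sex difference in THY-Tau22 mice to 0.03, 0.11 in microglia-like and -0.12 in OPC-like cells. It turned the male fold changes of Rpl22l1 (-0.03) and Rps27l (-0.37) in microglia-like and of Rpl32 (-0.15) in OPC-like cells. The OPC-like male median was 0.28 with no filter, 0.34 with all 16 libraries and 0.41 with the shared library as a THY-Tau22 male. The macrophage-like median was 1.32 in males and 0.70 over both sexes with no filter, and 0.45 between WT sexes at resolution 1.0. All other medians, 674 from other settings and 756 with a library left out, moved by less than the spread between libraries. The macrophage-like share was 2.60% at resolution 1.0, where the Clec7a and Cd74 cluster lost the name. With all UMIs as the denominator the share over all cells was 1.11% in WT males and 1.96% in THY-Tau22 males. At a minimum of 500 genes macrophage-like cells could not be fitted.

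No paired analysis was possible because replicate numbers only name mice in accession order. Depth limits members under 100 UMIs and the neuron-like and macrophage-like classes. The design limits the male contrast, where genotype and title code cannot be told apart.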
